A study of Homo sapiens with 4 samples.

Results

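The 9880 transcripts described here are all rows of the HT-29 table, in which RNA pulled down with beta-catenin was set against an input library of the same line; the 2 tables of the series hold 21823 rows. HT-29 is a human colon adenocarcinoma line in which the tumour suppressor APC is mutated. The cells were untreated, and both libraries started from nuclear lysate. For the RNA immunoprecipitation (RIP) library, an antibody to beta-catenin and magnetic beads were used, and the input is labelled as having no antibody. There was 1 library per side, so no value below has a replicate error and no difference between RIP and input was tested. The groups are a single established line, and a mock precipitation was not analysed here.

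Beta-catenin, encoded by CTNNB1, links cadherins to the actin cytoskeleton at cell junctions and acts with TCF/LEF factors as a transcriptional co-activator of Wnt signalling. In colon cancer with mutated APC its degradation fails and it accumulates in the nucleus. In a RIP experiment, RNA bound directly, RNA bound through partner proteins and RNA that sticks to the beads all reach the library, and a ratio of RIP to input does not tell them apart. The study asked which long non-coding RNAs go with beta-catenin in the nucleus.

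Levels are FPKM, fragments scaled to transcript length and to library size. The table lists only transcripts at least 1.5-fold higher in the RIP, with RIP levels from 1.31 FPKM upwards, so every ratio is above 0 on the log2 scale by selection. Ratios are log2 of RIP over input with 1 FPKM added to each, unless said otherwise. The account gives most weight to the 3342 main transcripts (33.8% of the table, 2711 gene names), those with at least 1 FPKM in both libraries and a genomic span of at least 200 nucleotides. The remainder comprised 3137 transcripts with input listed at 0, 3314 with input above 0 but under 1 FPKM, and 87 shorter than 200 nucleotides with input at 1 FPKM or more. Each value is that of 1 Ensembl transcript. Other isoforms of the same gene that fell outside the table were not analysed here, so a high ratio does not give the ratio of the whole gene. Of the 16 colon epithelium markers, 8 had listed transcripts. Of 6 immune and 7 fibroblast or endothelial markers, 0 were listed, which says nothing of their levels outside the table's limits.

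Most main transcripts lay close to the table's limit, and few lay far above it. The median main transcript was at 1.89 FPKM in input against 4.22 in the RIP, with a median log2 ratio of 0.71 (quartiles 0.54 and 0.97). At least 2-fold were 790 of 3342 (23.6%), at least 4-fold 51 (1.53%) and at least 8-fold 9. Without the added 1 FPKM the median fold was 1.93 and 1512 (45.2%) reached 2-fold. The share at 2-fold was 21.9% of the 1770 transcripts with input from 1 to 2 FPKM (95% Wilson interval 20.1 to 23.9) and 41.2% of the 80 from 20 to 100 FPKM (31.1 to 52.2). The plain fold had a median of 2.01 in the first of these ranges and 1.89 in the second, so the added 1 FPKM holds down the ratios of low transcripts. Shares of gene groups are therefore given both ways below, the plain fold being the ratio with nothing added. By genomic span, 27.6% of the 261 transcripts of 200 to 1000 nucleotides were at 2-fold or more (22.5 to 33.3), against 17.8% of the 214 that span at least 100000 (13.2 to 23.4). The plain fold had nearly equal medians in these span ranges, 1.91 and 1.9. Just inside the input minimum, from 1 to 1.1 FPKM, 67 of 311 transcripts reached 2-fold, and just outside it, from 0.9 to 1 FPKM, 56 of 344.

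**Figure D1:**
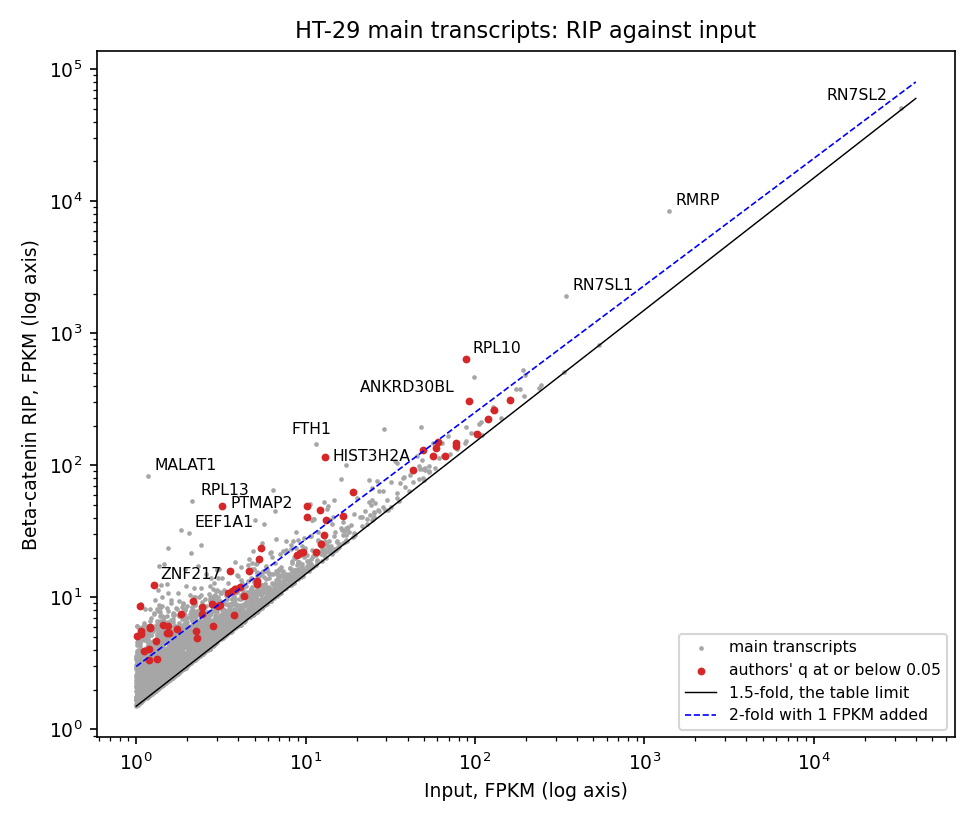
RIP against input FPKM for the 3342 main transcripts, both on log axes; each point is 1 transcript in 1 library per side, red points have q at or below 0.05 in the authors' deposited table, the solid line is 1.5-fold and the dashed line is 2-fold with 1 FPKM added. The points crowd along the solid line, and MALAT1 at 83.0 against 1.18 FPKM lies farthest above it.

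The highest main ratio belonged to MALAT1, a lncRNA of nuclear speckles. Its listed isoform (hg19 chromosome 11, 65269807 to 65271080, plus strand) was at 1.18 FPKM in input against 83.0 in the RIP, a log2 ratio of 5.27. It was the 1 MALAT1 transcript in the table, and NEAT1, the paraspeckle lncRNA, was not analysed here. Ferritin heavy chain, FTH1, which stores iron, followed among the abundant transcripts: an isoform of the nonsense-mediated decay class was at 11.6 against 144 FPKM. PTMAP2, a processed pseudogene of prothymosin alpha, was at 3.20 in input and 49.1 in the RIP (chromosome 5, 118309491 to 118309817). Reads of such a copy may come from its parent gene, and how they were shared is not given in the sources used here.

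Interferon-induced IFI27 was at 1.54 FPKM in input against 23.5 in the RIP, and 3 other IFI27 isoforms had RIP levels of 3.13 to 49.3 FPKM with log2 ratios of 0.61 to 1.78. PTPRF, a receptor tyrosine phosphatase of epithelia, was at 1.37 against 17.3 FPKM over a span of 92791 nucleotides. The other 5 of the 10 highest ratios were those of RPL13, RPL17, EEF1A1, RPL32 and HIST3H2A, genes of the translation machinery and of chromatin that are taken up below. In the authors' deposited table q was at or below 0.05 for 2 of these 10, PTMAP2 (0.0257) and HIST3H2A (listed at 0), and for MALAT1 it rounds to 1.

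**Figure D2:**
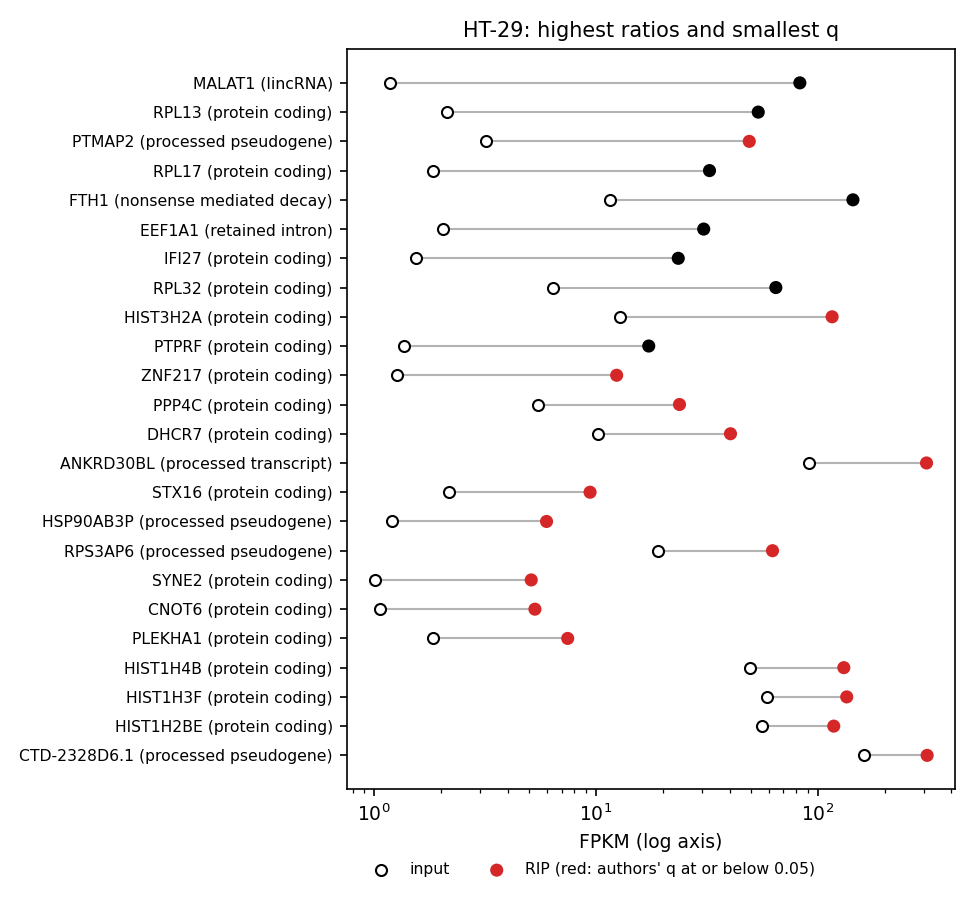
Input (open circles) and RIP (filled circles) FPKM on a log axis for the 10 main transcripts with the highest ratios and the 15 with the smallest q in the authors' deposited table, ordered by log2 ratio; red marks q at or below 0.05. MALAT1 spans the widest gap, from 1.18 to 83.0 FPKM, and CTD-2328D6.1 among the narrowest, from 161 to 311.

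Of the 51 transcripts at 4-fold or more, 9 came from cytosolic ribosomal protein genes (17.6%), which make up 3.80% of the main transcripts, and 5 from translation factor genes (9.80%), which make up 1.38%. Another 6 (11.8%) carry a small RNA class or name. Of the 51, 6 had q at or below 0.05 in the authors' deposited table, against 68 of the 3342 main transcripts (2.03%).

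Ribosomal proteins are the protein subunits of the ribosome, and their mRNAs are among the most abundant in growing cells. The cytosolic ribosomal protein genes had 181 listed transcripts from 73 genes, of which 127 from 63 genes were main transcripts. At least 2-fold were 52 of the 127 (40.9%, against 23.6% of all main transcripts), from 36 genes. Without the added 1 FPKM, 59.8% reached 2-fold, against 45.2% of all. The large subunit genes (RPL) had 33 of 76 at 2-fold or more and a median log2 ratio of 0.95, and the small subunit genes (RPS) 18 of 47 and 0.88. Over all listed transcripts with 1 FPKM in either library, which adds those with input at or near 0, the ribosomal protein median of 1.07 was not above the 1.11 of all. The protein-coding transcripts of the main set reached 2-fold in 33 of 72 cases and their retained-intron transcripts in 9 of 30.

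RPL13 was at 2.13 FPKM in input against 53.9 in the RIP (chromosome 16, 89627089 to 89629440). The other 2 listed RPL13 isoforms, with RIP levels of 11.7 and 123 FPKM, had log2 ratios of 0.63 and 0.78, so the high ratio was that of 1 isoform. RPL17 was at 1.84 against 32.5 FPKM and RPL32 at 6.41 against 64.7. RPL10 combined a high level with a high ratio, at 89.0 in input and 638 in the RIP (log2 ratio 2.83), where the authors' deposited table gives a q of 0.0233. RPLP2, a stalk protein of the large subunit, was at 99.3 against 466. Of the members with the highest RIP levels, RPL10, RPLP2 and RPS29 (191 in input and 530 in the RIP) stood above 2-fold. RPL39, at 539 in input and 819 in the RIP, and RPL37A, at 336 and 508, were near the table's limit.

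Ribosomal protein and elongation factor mRNAs are known for a terminal oligopyrimidine start, a C at the cap followed by a run of C or T, through which mTOR signalling controls their translation. The start windows below, 10 bases before and 20 from the annotated RefSeq start on (GRCh38.p14, gene strand), are those of 8 genes of high ratio, picked after their windows were seen so that both kinds are shown, and their number gives no share. Capitals mark a run that begins with C exactly at the annotated start and goes on with at least 4 bases of C or T. The listed isoforms can start elsewhere.
EEF1A1, chr6:73521013-73521042, minus strand: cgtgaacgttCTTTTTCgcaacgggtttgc
EIF3M, chr11:32583821-32583850, plus strand: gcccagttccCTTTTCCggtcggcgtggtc
GLTSCR2, chr19:47745536-47745565, plus strand: tggctgagttCTTCCTTTgacaagatggcg
RPL13A, chr19:49487598-49487627, plus strand: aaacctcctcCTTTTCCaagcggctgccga
RPLP2, chr11:809957-809986, plus strand: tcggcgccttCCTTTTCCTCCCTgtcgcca
RPL21, chr13:27251548-27251577, plus strand: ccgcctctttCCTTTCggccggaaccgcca
RPL13, chr16:89560647-89560676, plus strand: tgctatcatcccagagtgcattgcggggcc
RPL32, chr3:12841546-12841575, minus strand: acgacccatcagcccttgcgcgccaccgtc
The first 6 have such a run. RPL13 and RPL32 have none at the annotated start, and neither do RPL17 and RPL10. These are the 4 ribosomal protein genes with the highest ratios. Only the annotated start was scored, so this does not show that their mRNAs lack such a run. Of the 10 genes with the highest main ratios, 8 have a window, and among these EEF1A1 and HIST3H2A have such a run. Such a run stands at the start of 1104 of all 27305 windows in the RefSeq table (4.04%). A window was found for 2042 of the 2711 gene names with main transcripts (75.3%) and for 50 of the 63 ribosomal protein genes (79.4%). This coverage is too low for a check over gene groups, so shares of the groups were not compared and the check is void.

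Translation factors carry initiation and elongation. They had 46 main transcripts from 27 genes, with 22 at 2-fold or more (47.8%) and a median log2 ratio of 0.98, against 23.6% and 0.71 over all main transcripts. By the plain fold, 76.1% reached 2-fold against 45.2% of all, and the median fold was 2.50 against 1.93. EEF1A1, which brings aminoacyl-tRNA to the ribosome, was listed by a retained-intron transcript at 2.04 FPKM in input against 30.6 in the RIP, and by a processed transcript at 29.1 and 190. EIF3 subunits, which hold the initiation complex on the small subunit, were listed by 3 genes with high ratios. EIF3M was at 2.12 against 21.6 FPKM, EIF3L at 5.01 against 38.5 and EIF3J at 1.41 against 12.4, the last 2 by retained-intron transcripts. None of the 46 had q at or below 0.05 in the authors' deposited table, where 2.03% of all main transcripts did. GLTSCR2 (NOP53), a ribosome assembly factor outside both lists that was named after its values were seen, was at 2.41 FPKM in input against 24.8 in the RIP.

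Histone genes had the largest share of low q. Histones package DNA, and the mRNAs of the clustered HIST genes are made in S phase and end in a stem-loop in place of a poly(A) tail. The histone list had 27 main transcripts from 22 genes, with 12 at 2-fold or more (44.4% against 23.6% of all) and a median log2 ratio of 0.99. The plain fold put 55.6% at 2-fold, against 45.2% of all. With 1 FPKM needed in either library, the histone median was 1.03 and that of all transcripts 1.11. In the authors' deposited table, q was at or below 0.05 for 10 of the 27 (37.0%), against 68 of the 3342 main transcripts (2.03%). Their median input level was 30.4 FPKM, where that of all main transcripts was 1.89. The share with q at or below 0.05 in that table also differed with level over all main transcripts, from 1.02% at inputs of 1 to 2 FPKM to 12.5% at 20 to 100, and the part of level in the histone share was not tested.

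HIST3H2A, an H2A gene on chromosome 1 (228645065 to 228645560), stood apart from the others, with 12.9 FPKM in input against 116 in the RIP. Its neighbour HIST3H2BB (228645808 to 228646259) was at 9.63 and 14.6, close to the table's limit. Of the genes on chromosome 6, HIST1H3A was at 13.1 against 38.7, HIST1H4B at 49.5 against 131 and HIST1H3F at 58.8 against 135. Transcripts of the replication-independent histones H3F3A, H3F3B, H2AFY, H2AFV and H2AFZ numbered 9, with folds of 1.65 to 3.03 and a median of 2.20. The 18 of HIST genes had folds of 1.52 to 8.98 and a lower median, 1.84. This is also below the median plain fold of all main transcripts, 1.93. HIST genes of 1 histone type are close copies of each other, so single members are uncertain where reads fit several.

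**Figure D3:**
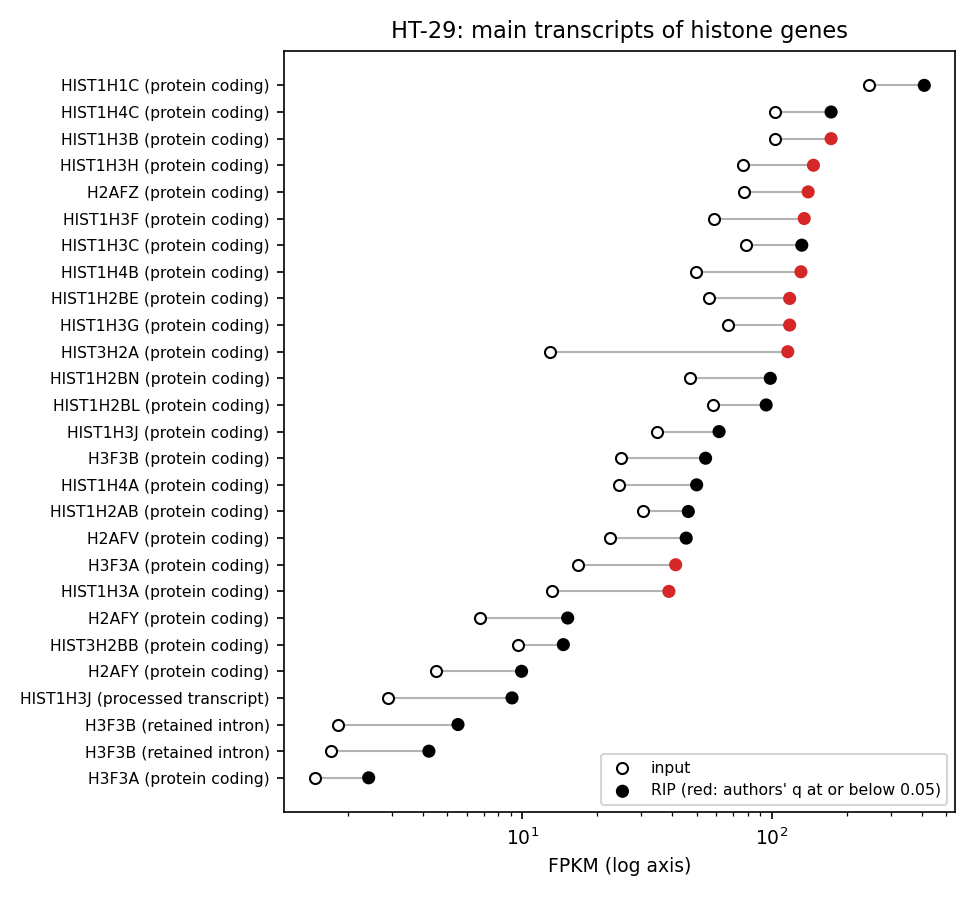
Input (open circles) and RIP (filled circles) FPKM on a log axis for the 27 main transcripts of histone genes, ordered by RIP level; red marks q at or below 0.05 in the authors' deposited table. HIST3H2A shows the widest gap, from 12.9 to 116 FPKM, and HIST1H1C the highest RIP level, 409 FPKM.

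The transcripts with q at or below 0.05 in the authors' deposited table were mostly not those with the highest ratios. That table gives 304 such transcripts (3.08% of the listed ones), of which 196 had input listed at 0, 29 had input above 0 and under 1 FPKM, 11 were short and 68 were main transcripts. Of the 68, 55 were at 2-fold or more, with log2 ratios from 0.75 to 3.58 and a median of 1.31. Protein-coding transcripts made up 59 of the 68 (86.8%), against 60.1% of all main transcripts. The median span of the 68 was 20021 nucleotides, where that of all main transcripts was 10590 and that of the protein-coding ones 17554. ANKRD30BL followed HIST3H2A, at 91.6 FPKM in input against 309 in the RIP and had a q of 2.8e-08 in the authors' deposited table.

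DHCR7, the last enzyme of cholesterol synthesis, was at 10.2 against 40.4 FPKM, for which the authors' deposited table gives a q of 1.21e-05. ZNF217, a transcriptional repressor gene on chromosome 20 (52183604 to 52210378), had the same q in the authors' deposited table and was at 1.27 against 12.4. PPP4C, the catalytic subunit of a protein phosphatase, was at 5.48 against 23.8. Genes with long spans were among the 15 smallest q: SYNE2, which ties the nuclear envelope to the cytoskeleton, was at 1.01 against 5.11 FPKM over 373483 nucleotides, and CNOT6, a deadenylase of the CCR4-NOT complex, at 1.06 against 5.31. Pseudogenes among them were RPS3AP6 (19.1 against 62.5), HSP90AB3P (1.20 against 5.99) and CTD-2328D6.1 (161 against 311). STX16, a syntaxin of vesicle fusion, was at 2.18 against 9.41, and PLEKHA1 at 1.84 against 7.46.

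With 1 FPKM added, genes of RNA processing gave ratios nearer to those of all main transcripts. By the plain fold this order did not hold for splicing factors. Their median fold was 2.10, beside 2.09 for cytosolic ribosomal proteins and 2.05 for histones. Splicing factors had 23 of 64 main transcripts at 2-fold or more (35.9%) and a median of 0.80, and without the added 1 FPKM 53.1% against 45.2% of all. HNRNPA3, which packages nascent RNA, was at 1.35 FPKM in input against 11.5 in the RIP. SNRPD2, a core protein of spliceosomal particles, was at 16.1 against 79.1, SRSF5 at 1.21 against 8.17 and HNRNPA1 at 6.71 against 27.6. RNA helicases and export factors had 9 of 28 at 2-fold or more, with a median of 0.71, equal to that of all main transcripts, and 46.4% by the plain fold. DDX5, a helicase of splicing and transcription, led them at 1.66 against 7.41, and DHX15 was at 2.54 against 7.86.

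The snoRNA host genes, whose introns release small nucleolar RNAs, had 8 of 23 main transcripts at 2-fold or more (34.8%, and 56.5% by the plain fold) and a median of 0.84. DANCR was listed by a retained-intron transcript at 1.36 against 8.74 FPKM and a lincRNA transcript at 5.16 against 15.2, GAS5 at 1.46 against 6.67 and ZFAS1 at 5.81 against 15.9. Over the whole table, 45 main transcripts from 32 gene names span a listed snoRNA on the same strand, and 17 of them were at 2-fold or more (37.8%, Wilson interval 25.1 to 52.4). The 3294 others outside the snoRNA class reached 2-fold in 23.4% (22.0 to 24.9). By the plain fold the shares were 53.3% and 45.1%. The snoRNA-holding transcripts also had the higher median RIP level, 6.08 against 4.20 FPKM, and its part was not tested. The snoRNAs that define this group are themselves listed, so at least 1.5-fold up in the same RIP library. The grouping is thus not independent of the values compared, and the shares are a description only. Examples chosen after their values were seen were NCL (nucleolin), with SNORD20 in its span, at 1.03 against 5.85 FPKM, and RPS3, with SNORD15A and SNORD15B, at 69.1 against 166.

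**Figure D4:**
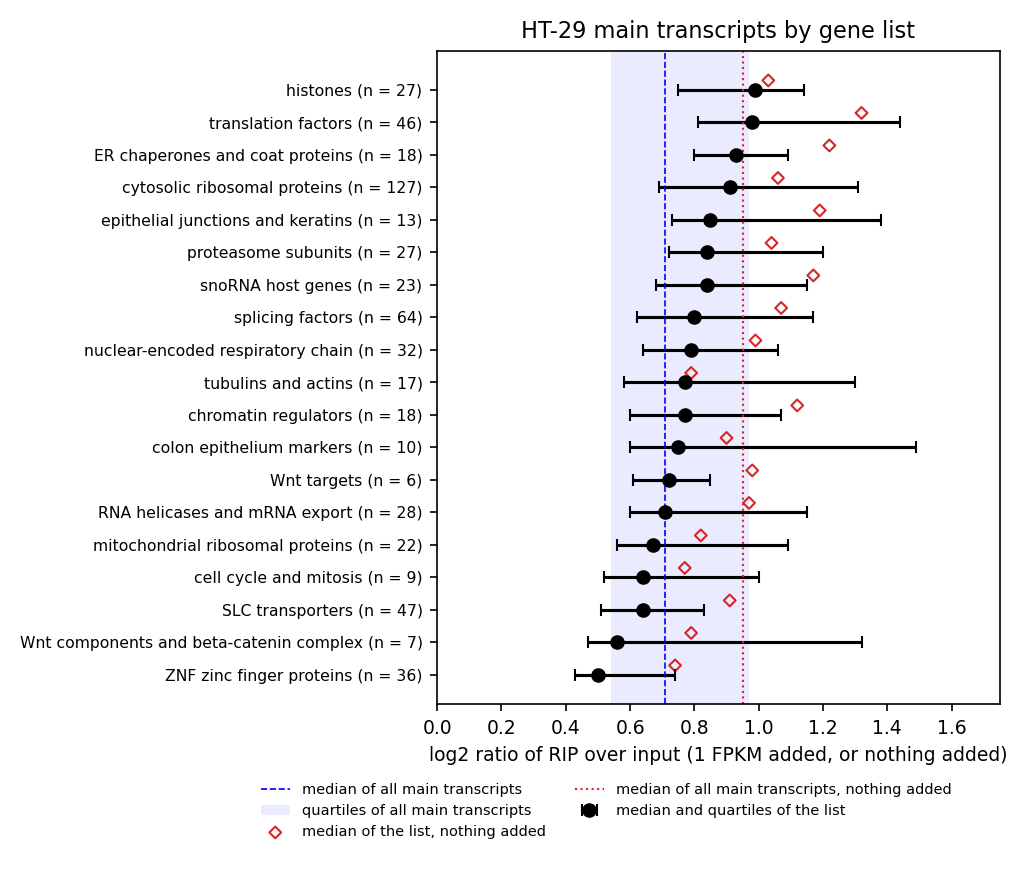
Median log2 ratio of RIP over input with quartiles for each gene list with at least 6 main transcripts (filled circles and bars, 1 FPKM added; open diamonds, median with nothing added); the dashed and dotted lines are the medians of all 3342 main transcripts, 0.71 with 1 FPKM added and 0.95 with nothing added. With 1 FPKM added, histones (0.99) and translation factors (0.98) lie at the top and ZNF genes (0.50) at the bottom. With nothing added, translation factors are at 1.32 and histones at 1.03. The shaded band gives the quartiles of single transcripts over the main set, 0.54 and 0.97.

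Other housekeeping groups had shares at 2-fold above the 23.6% of all main transcripts, but by the plain fold the mitochondrial ribosomal proteins lay below the 45.2% of all. Proteasome subunits, which degrade ubiquitinated proteins, had 11 of 27 main transcripts at 2-fold or more (40.7%, and 51.9% by the plain fold) and a median of 0.84, led by PSMA3 at 1.43 FPKM in input against 10.1 in the RIP and PSMC3 at 1.14 against 4.94. ER chaperones and coat proteins had 7 of 18 (38.9%, and 72.2% by the plain fold) and a median of 0.93. These 7 came from 3 genes, and 4 of them were isoforms of P4HB, protein disulfide isomerase, the most abundant at 16.6 against 37.5. With 1 transcript per gene the share was 30.0% of 10, against 24.1% of all, and with 5 FPKM added it was 0 of 18. Nuclear-encoded respiratory chain genes had 9 of 32 (28.1%, and 16 of 32 by the plain fold) and a median of 0.79, with NDUFA9 at 1.12 against 8.19. Mitochondrial ribosomal proteins had 7 of 22 (31.8%, and 36.4% by the plain fold) and a median of 0.67, with MRPL48 at 1.86 against 8.39.

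Tubulins and actins had 7 of 17 (41.2%, and 47.1% by the plain fold) and a median of 0.77, with ACTB at 4.66 against 19.5 FPKM by a retained-intron transcript. Chromatin regulators had 5 of 18 (27.8%, and 55.6% by the plain fold) and 0.77, with the methyltransferase gene KMT2C at 1.15 against 6.08 and CHD8, a remodeller that binds beta-catenin, at 1.12 against 3.90 and at a q of 0.0106 in the authors' deposited table. Cell cycle genes had 3 of 9 (33.3%, and 44.4% by the plain fold) and 0.64, with CCNB1 at 2.86 against 6.81. SLC transporters had 7 of 47 at 2-fold or more (14.9%) and a median of 0.64, and ZNF zinc finger genes 3 of 36 (8.33%) and 0.50. By the plain fold the SLC share of 44.7% lay next to the 45.2% of all, and the ZNF share was 33.3%. SLC6A8, the creatine transporter, was at 1.84 against 7.68.

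Genes of beta-catenin's own pathway had few main transcripts. CTNNB1 was listed by 1 isoform at 7.69 FPKM in input against 11.8 in the RIP, a log2 ratio of 0.56, below the median of 0.71. Of 37 pathway and complex genes, 17 were listed and 7 had a main transcript each. Of the 7, 3 were at 2-fold or more (42.9% by either fold), with a median of 0.56. All main transcripts reached 2-fold in 23.6% of cases, or 45.2% by the plain fold. Over the listed transcripts with 1 FPKM in either library, 25 of 33 reached 2-fold (75.8%, against 55.1% of all), with a median of 1.39 against 1.11. Of these 33, 14 had input listed at 0. Such rows all pass 2-fold, since the lowest RIP level listed is 1.31 FPKM. Both this share and that of all are thus partly set by the filter, and their difference was not tested. CSNK1A1, the kinase that primes beta-catenin for degradation, was at 2.76 against 14 FPKM (chromosome 5, 148928891 to 148930731). CTNNA1, alpha-catenin, was at 4.13 against 13.5 by a nonsense-mediated decay transcript, and BCL9L, a co-activator that binds beta-catenin, at 2.33 against 6.38.

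Of 23 Wnt target genes, 9 were listed and 5 had main transcripts, 6 in all. Of these, 0 were at 2-fold or more, against 23.6% of all main transcripts, which is a description of 6 ratios. RNF43, which removes Wnt receptors from the membrane, came nearest, at 6.88 against 14.2 FPKM, then BMP4 at 1.85 against 4.21 and CD44, an adhesion receptor, at 1.12 against 2.59. DKK1, a secreted Wnt inhibitor, was at 2.02 against 3.79. By the plain fold 3 of the 6 reached 2-fold, where 45.2% of all main transcripts did. Epithelial junction and keratin genes, with which beta-catenin works at the membrane, had 5 of 13 (38.5%, and 61.5% by the plain fold) and a median of 0.85. KRT18 was at 14.7 against 54.3, KRT19 at 1.53 against 7.23 and ITGB4 at 3.39 against 10.4. The colon epithelium markers, which share both keratins with that list, had 3 of 10 by either fold and a median of 0.75. LGALS4, a galectin of the gut, was at 4.83 against 18.2.

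Some lists had too few main transcripts to describe as groups. Of immediate early genes, IER2 was at 2.75 FPKM in input against 4.98 in the RIP. Goblet and hepatic secretion markers were listed by TFF3 and SERPINA1, with 3.79 and 4.68 FPKM in the RIP and inputs under 1 FPKM. The microRNA gene list had 1 main transcript, MIR4426, annotated as a processed pseudogene (5.34 against 9.33), and all 21 transcripts of the miRNA class had input listed at 0. Of the nuclear-retained lncRNAs, TUG1 had a main transcript beside MALAT1, at 1.29 against 1.98 FPKM, at a log2 ratio of 0.38. LUST, the lncRNA in the study's title, is RBM5-AS1, antisense to RBM5 beside RBM6. Of these, RBM6 was listed, at 0.518 against 1.74 FPKM, and RBM5 and RBM5-AS1 were not analysed here.

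Transcript classes gave similar shares. The share at 2-fold or more was 22.7% of 2010 protein-coding main transcripts (Wilson interval 21.0 to 24.6), 22.4% of 465 retained-intron (18.8 to 26.4), 27.5% of 404 processed transcripts (23.3 to 32.0) and 25.3% of 198 of the nonsense-mediated decay class (19.7 to 31.7). Antisense transcripts reached it in 26.0% of 96 cases (18.3 to 35.6), processed pseudogenes in 25.9% of 58 (16.3 to 38.4), misc_RNA in 26.5% of 34 (14.6 to 43.1) and lincRNAs in 22.6% of 53 (13.5 to 35.5). All these intervals hold the 23.6% of the whole set. Without the added 1 FPKM, processed transcripts reached 2-fold in 50.5% and protein-coding transcripts in 43.6%. The intervals cover counting error only, and transcripts of 1 gene are not independent.

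**Figure D5:**
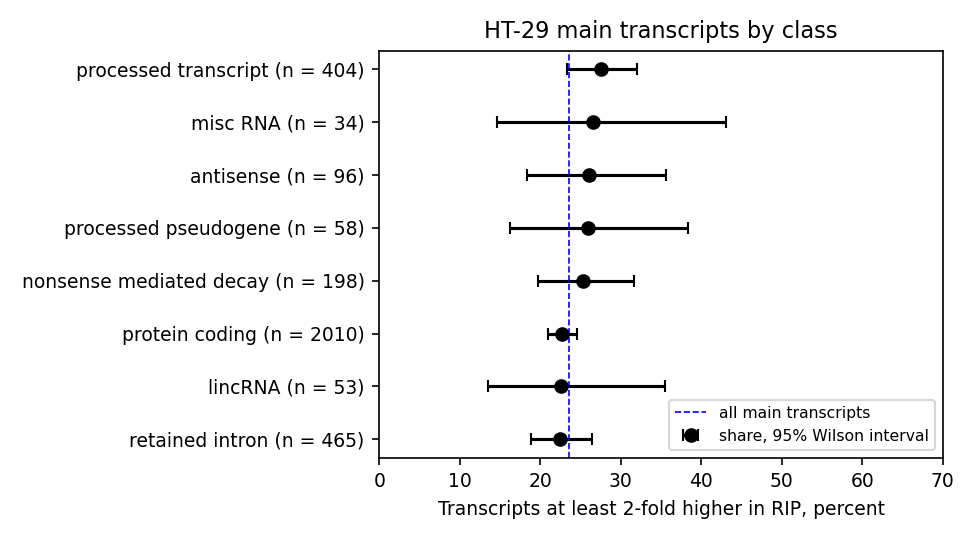
Percent of main transcripts at least 2-fold higher in the RIP, by Ensembl class with at least 10 main transcripts; points are shares with 95% Wilson intervals and the dashed line is the 23.6% of all main transcripts. Every interval crosses the dashed line.

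Within the lncRNA classes (lincRNA, antisense, sense-intronic and sense-overlapping), 39 of 157 main transcripts were at 2-fold or more (24.8%, 18.7 to 32.1). After MALAT1 the highest carry the names of small structural RNAs and are placed in these classes by annotation. RMRP, the RNA of RNase MRP, was at 1406 FPKM in input against 8426 in the RIP. RN7SL1, the RNA of the signal recognition particle, was at 344 against 1906, and RPPH1, the RNA of RNase P, at 47.7 against 197. RN7SL2, of the misc_RNA class, was at 32943 against 50539, and how reads were shared between it and RN7SL1 is not given. The transcript named SNORA76, at 3.08 against 16.5, spans 507 nucleotides and holds SNORD104, itself listed at 0 in input and 48988 FPKM in the RIP. How reads were shared between these overlapping entries is not given, so their values cannot be told apart. All 6 main lncRNA-class transcripts with a small RNA gene name were at 2-fold or more, and 4 of them at 4-fold or more. Of the 151 others, 33 were at 2-fold or more (21.9%, 16 to 29.1) and 1, MALAT1, at 4-fold or more. None of the 157 had q at or below 0.05 in the authors' deposited table, where 2.03% of all main transcripts did. Of the 462 listed transcripts of these classes 2 had such a q, against 3.08% of all listed transcripts.

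Antisense transcripts among these 33 included AC007308.7 at 1.49 against 6.42 FPKM and, named after their values were seen, HOXB-AS3 at 2.45 against 7.46 and CYP1B1-AS1 at 1.41 against 4.18. The strandedness of the libraries is not given in the sources used here, so reads of an antisense transcript and of the gene opposite cannot be told apart. LINC00992, an intergenic RNA also named after its values were seen, was at 1.57 against 4.47.

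The processed pseudogenes at 2-fold or more numbered 15 of 58, and several are named as copies of ribosomal protein or EEF1A1 genes. RPL24P8 was at 1.32 FPKM in input against 8.15 in the RIP, and RP11-864N7.2 at 1.76 against 10.7. EEF1A1P13 (2.18 against 8.01), RPL13P12 (5.19 against 15.6) and RPS7P1 (4.82 against 10.8) were named after their values were seen. Levels of such copies and of their parents share reads and are uncertain. Copies of 7SL and 7SK led the misc_RNA class, with RN7SKP185 at 1.93 against 16.5, RN7SL674P at 10.1 against 48.9 and RN7SL128P at 8.78 against 31.3. RN7SL2 itself, the main transcript with the highest level, stood near the limit at 32943 against 50539.

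Isoforms of 1 gene spread widely. Of the 2711 gene names, 2235 had 1 main transcript and 476 had several. DDX5, HNRNPH1 and RPLP0 had 7 each, and NOP56 and P4HB 6. The log2 ratios of RPLP0, a stalk protein of the ribosome, ran from 0.63 to 1.84 over RIP levels of 2.14 to 91.1 FPKM. Those of HNRNPH1, a splicing regulator, ran from 0.49 to 1.60, of DDX5 from 0.53 to 1.66 and of NOP56, a core protein of C/D snoRNPs, from 0.44 to 1.54. P4HB was the even one, with 0.95 to 1.15. In DDX5, HNRNPH1 and RPLP0, 3 of 7 isoforms were at 2-fold or more.

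RNAs under 200 nucleotides had far higher ratios than the main transcripts. Of the 87 that reached 1 FPKM on both sides, 73 were at 2-fold or more (83.9%) and their median log2 ratio was 2.10. Main transcripts reached 2-fold in 23.6% of cases, or 45.2% by the plain fold. The snoRNAs accounted for 49 of 53 with a median of 2.73, the snRNA class for 15 of 17 with 1.64, and the rRNA class for 6 of 8 with 1.66. An entry named U3, on chromosome 14 with a span of 108 nucleotides, was at 310 FPKM in input against 41324 in the RIP. U3 is the snoRNA of early rRNA processing, but whether this entry is that RNA or a copy is not given in the sources used here. Next came SNORA71D (58.3 against 3254), RNU3P3 (39.0 against 2179), SNORD15A (95.9 against 3654) and SNORA74 (75.2 against 2547). Fragment counts are not given, and inputs of such short RNAs may rest on few fragments. SNORA38B and SNORA45, both of 131 nucleotides, had the same input of 72.3 FPKM. The part of low counts in these ratios was not tested. Of mitochondrially encoded genes 4 tRNAs were listed, among them MT-TS1 at 61371 against 624533. Over all 9880 rows, 56.0% were at 2-fold or more, or 77.1% without the added 1 FPKM, and 46.1% (87.4%) of those with input above 0 and under 1 FPKM. Both shares over all rows count every one of the 3137 with input listed at 0. With 1 FPKM added these pass 2-fold through the lowest RIP level of 1.31 FPKM, and their plain fold is undefined.

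CaCo-2, the other colon line of the series, was also untreated and had 1 library per side, and its table likewise holds only transcripts 1.5-fold or more above input. Of the 3342 HT-29 main transcripts, 660 (19.7%) were listed in CaCo-2, and 351 were main transcripts in both lines, which is 10.5% of the HT-29 set and 13.9% of the 2533 in CaCo-2. Of HT-29 transcripts at 2-fold or more, 184 of 790 were listed in CaCo-2 (23.3%, Wilson interval 20.5 to 26.4), and of those below 2-fold 476 of 2552 (18.7%, 17.2 to 20.2). Main transcripts of CaCo-2 reached 2-fold in 12.6% of cases, against 23.6% in HT-29. By the plain fold the shares were 35.2% and 45.2%, and q at or below 0.05 in the authors' deposited table was reached by 1.58% and 2.03%. FTH1 was at 8.45 FPKM in input against 17.2 in the RIP of CaCo-2, the EEF1A1 retained-intron transcript at 14.9 and 22.5, and ZNF217 at 9.57 and 15.7, each a smaller ratio than in HT-29, where they were chosen for high ratios or small q. Ratios were higher in CaCo-2 for MALAT1, listed at 0 in input and 128 in the RIP, and for RNF43, at 2.48 and 8.77. ANKRD30BL was at 116 and 296, DHCR7 at 11.2 and 25.5 and SYNE2 at 1.13 and 2.54, again smaller ratios than in HT-29. Their CaCo-2 q in the authors' deposited table was 1.83e-05, 0.019 and 0.0204, and that of ZNF217 was 0.0408. PPP4C, STX16, CNOT6 and PLEKHA1, also among the 15 smallest q in HT-29, were not listed in CaCo-2 by the same transcript. RPL13, RPL17, RPL32, PTMAP2 and HIST3H2A were not listed there by the same transcript. The difference between lines was not tested.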

How the data were processed

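Per the submitters' processing notes, reads were handled on hg19 with TopHat2 2.0.8, Bowtie2, CASAVA 1.4, Cuffdiff and Cufflinks; other versions, the order and the settings are not stated in those notes. The authors deposited 1 table per line with an FPKM per Ensembl transcript and library, a log2 fold change, and Cuffdiff p-values and q-values, quoted as theirs. Column headers do not name the FPKM unit. Start coordinates, 1 lower in the files, are written from 1. Depth is unknown. The number of unmapped columns of per-sample values was 0.

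The log2 ratio of RIP over input with 1 FPKM added was computed in Python 3.11.15 with pandas 2.3.3 and scipy 1.17.1 for all 9880 rows and read mainly over the 3342 main transcripts. With 1 library per side no test was run; the code was tested on simulated data. The transcripts, the 27 gene lists and the rule for named genes were chosen with earlier results of these data known. Named were the 10 highest ratios and 10 highest RIP levels; 3 per class; 15 smallest q; the 5 genes with most transcripts; 5 short RNAs; up to 4 per list; and CTNNB1, RBM5, RBM6, RBM5-AS1, MALAT1 and NEAT1. Alternatives changed the pseudocount, FPKM minimum, span, fold, isoform choice and small RNAs. Start sequences are those of RefSeq on GRCh38.p14, of which 2537 of 2711 gene names matched a gene.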

Additional observations from a re-analysis of the deposited data

How the results depend on the processing

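The 790 main transcripts at 2-fold or more became 1394 with 0.1 FPKM added, 160 with 5 FPKM added and 1512 with the fold of the authors' deposited table. A minimum of 1 FPKM in either library gave 5326 of 9663, which takes in rows with input listed at 0 that all pass 2-fold, and 5 FPKM in both gave 151 of 520. The median log2 ratio of 0.71 moved to 0.92, 0.38, 0.95, 1.11 and 0.80 under these 5 settings, in the same order; a smaller pseudocount raises every ratio here and a larger one lowers it. With no minimum span, a span of at least 1000 nucleotides, 1 transcript per gene, or without small RNAs, the count was 718 to 863 or, for 1 per gene, 652, and the median 0.71 to 0.72. Of the 10 highest ratios, 9 stayed with 0.1 FPKM added, 7 with 5 FPKM added, 3 with at least 5 FPKM in both libraries, 2 with no minimum span and 1 with 1 FPKM in either library. With at least 5 FPKM in both libraries, the splicing factor, respiratory chain and proteasome medians turned to 0.04, 0.05 and 0.05 below that of all, and their shares at 2-fold were 33.3%, 9.09% and 11.1% against 29.0%. The translation factor, ribosomal protein and histone medians stayed above it by 0.18, 0.23 and 0.16. With 1 FPKM needed in either library, the ribosomal protein, histone, splicing factor and ER medians were 0.04, 0.08, 0.05 and 0.02 below that of all 9663, and the translation factor median 0.19 above. The tables give no depth, and because of the 1.5-fold limit no setting could turn a ratio's sign. No paired analysis was possible because each side has 1 library.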
